A study of Mus musculus with 12 samples.

Results

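The genes described here are 6 that encode digestive enzymes of the pancreas: Pnliprp2, Pnlip, Cpa1, Cela3b, Cela1 and Ctrb1. They were chosen by their measured array levels in fetal gonadal cells and by the differences of those levels between Kdm3a mutants and controls, so levels and mutant effects are given below as a description without a test. Each of the 6 had 1 probe matched by its RefSeq accession, out of 18749 named genes on the array, and all 6 were among the 13264 named genes that passed the filter on dim probes. That filter asks for a signal well above background, as flagged by the scanner software, on all arrays of at least 1 group. Cela1 met it through 3 of the 4 groups, and the other 5 were well above background on all 12 arrays. The probes were A_51_P314669 (Pnliprp2), A_52_P584279 (Pnlip), A_52_P161237 (Cpa1), A_51_P340456 (Cela3b), A_52_P578634 (Cela1) and A_51_P205761 (Ctrb1).

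The study measured RNA of gonadal somatic cells of mouse embryos at embryonic day 11.5, when the male gonad begins to differ from the female one. Embryos carried a mutant allele of Jmjd1a, now called Kdm3a, which encodes a demethylase of lysine 9 of histone H3. The 4 groups of 3 embryos were homozygous mutant males, heterozygous control males, homozygous mutant females and heterozygous control females, so the controls also carried 1 mutant copy and no wild-type embryo was compared. A transgene put the surface protein CD271 under Nr5a1, which is active in somatic cells of the gonad and adrenal, and magnetic capture through CD271 took the cells from gonads and mesonephroi together. Each array held 1 embryo. Arrays were of a single colour (Cy3), and a level below is a log2 signal after subtraction of the log2 75th percentile of its array, so that 0 means as bright as that percentile. Levels compare embryos for the same probe and not one gene with another.

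Acinar cells of the pancreas make digestive enzymes, the proteases among them as inactive precursors, store them in granules and release them into the gut. Their genes are switched on in the fetal pancreas by transcription factors that include Ptf1a, Rbpjl, Bhlha15 and Nr5a2. The enzymes fall into families that digest fats, such as the pancreatic lipases, and families that digest proteins, such as the carboxypeptidases, elastases and chymotrypsins. Several of these genes lie next to their relatives on the chromosome. Methylation of lysine 9 of histone H3 marks silent chromatin, and Kdm3a can remove methyl groups from this residue.

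The 12 arrays had a 75th percentile of 142.9 to 299.5 signal units, with 58.0% to 65.2% of their spots well above background. The brighter Kdm3a probe, at 0.70 to 1.04 in mutant males against 2.70 to 3.03 in control males and at 0.43 to 0.75 in mutant females against 2.81 to 2.96 in control females, separated the genotypes without overlap. On 0 of the 6 mutant arrays and all 6 control arrays a dimmer probe for Kdm3a exceeded background. Where the probes lie relative to the mutated part of the gene is not known here. Markers of gonadal somatic cells, among them Nr5a1, Wt1, Gata4 and Lhx9, were well above background on every array (9 of 9 genes). Each slide of 4 arrays had its own scan. The first carried mutant male 1 beside all control males, the second the other mutant males beside control females 1 and 2, and slide 3 all mutant females beside control female 3. In these bulk samples, fewer cells of a type and less RNA per cell cannot be told apart.

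Among the 6 genes, 4 were lower in the mutants of both sexes and 2 had overlapping groups. Pnliprp2 was 5.63-fold lower in mutant than in control males, Cpa1 3.80-fold, Cela3b 2.51-fold and Pnlip 2.30-fold. In females the same 4 genes were lower by 4.98-fold, 3.71-fold, 2.14-fold and 2.36-fold in the same order. For these 4 genes no mutant array reached the lowest control array of its sex. The groups of Cela1 and Ctrb1 overlapped in both sexes. Over all 19178 features tested, the lower groups did not overlap with the higher ones for 12% in males and 7.41% in females, and 0.391% in males and 0.349% in females passed as lower at a limma adjusted p below 0.05. These shares are given as background only, since the genes were chosen with these values known.

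**Figure D1:**
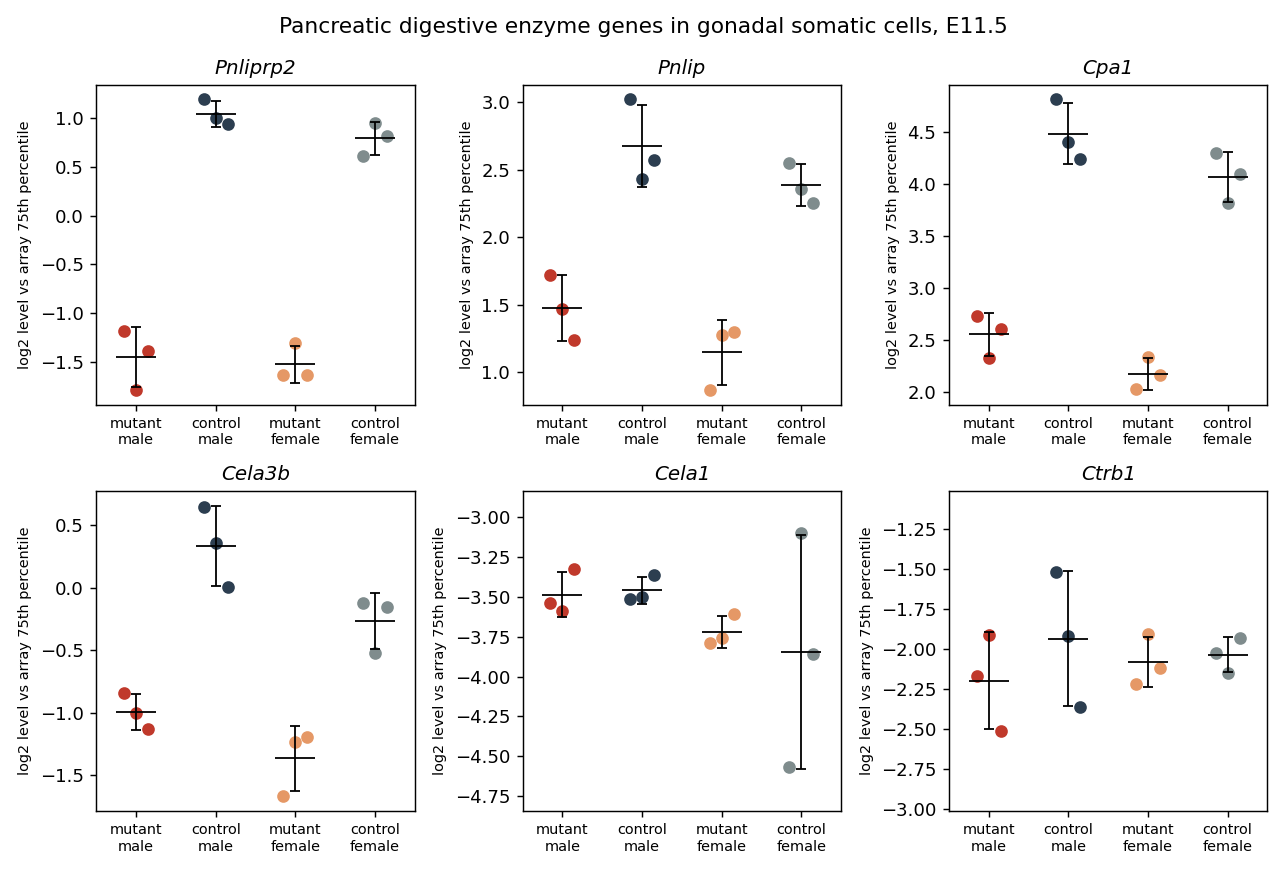
Level of each of the 6 genes on every array (dots, 1 embryo each), as log2 signal relative to the 75th percentile of the array, with the mean and SD of each group of 3 (black bars). Pnliprp2, Pnlip, Cpa1 and Cela3b sit lower in mutants than in controls of the same sex with no overlap, while the groups of Cela1 and Ctrb1 overlap.

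The promoters of the 6 genes are shown because 4 of the genes were lower together and 2 were not. The sequences are the 120 bases before the annotated start from RefSeq (GRCm38.p6), printed 5′ to 3′ on the strand of the gene. They lie at chr19:58759603-58759722 and chr19:58670245-58670364 on the plus strand, chr6:30639098-30639217 on the plus strand, and chr4:137430521-137430640, chr15:100687921-100688040 and chr8:111691011-111691130 on the minus strand. Capitals mark matches on either strand to an E-box (CANNTG), the Rbpj core (TGGGAA), an Nr5a motif (CAAGGNCA) or a TATA box (TATAAA); the searched motifs overlapped in none of the 6 windows.
Pnliprp2: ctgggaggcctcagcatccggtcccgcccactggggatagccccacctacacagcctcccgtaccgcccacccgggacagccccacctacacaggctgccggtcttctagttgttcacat
Pnlip: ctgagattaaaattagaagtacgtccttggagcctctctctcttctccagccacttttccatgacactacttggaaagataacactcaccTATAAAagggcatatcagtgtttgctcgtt
Cpa1: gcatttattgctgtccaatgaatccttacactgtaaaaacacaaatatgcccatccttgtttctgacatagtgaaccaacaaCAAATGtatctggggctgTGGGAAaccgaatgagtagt
Cela3b: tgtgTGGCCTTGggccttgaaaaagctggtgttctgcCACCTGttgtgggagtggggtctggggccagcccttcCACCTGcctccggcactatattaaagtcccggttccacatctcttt
Cela1: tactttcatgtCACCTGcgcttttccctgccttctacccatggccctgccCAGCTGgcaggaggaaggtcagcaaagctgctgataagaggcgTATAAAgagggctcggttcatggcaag
Ctrb1: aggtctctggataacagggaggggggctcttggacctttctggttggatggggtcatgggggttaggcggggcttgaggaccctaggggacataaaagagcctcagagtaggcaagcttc
Cpa1 held 1 E-box and 1 Rbpj core, Cela3b held 2 E-boxes and 1 Nr5a motif, Pnlip held 1 TATA box, and Cela1 held 2 E-boxes and 1 TATA box. Pnliprp2 and Ctrb1 held none of the 4 motifs. Of 32851 promoters of the same length, 40.2% held an E-box, 10.4% the Rbpj core, 2.46% the Nr5a motif and 6.34% the TATA box. No motif was held by all 4 lower genes, and GC content ran from 40.0% (Cpa1) to 65.8% (Pnliprp2), with 55.0% for Cela1 and 57.5% for Ctrb1. A match is a description of letters and not a binding site.

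Pnliprp2 encodes pancreatic lipase-related protein 2, an enzyme that splits galactolipids and other fats. Its level was -1.18, -1.79 and -1.39 in mutant males, against 1.19, 1.00 and 0.94 in control males. In mutant females it was -1.63, -1.31 and -1.63, against 0.61, 0.95 and 0.81 in control females. The gap between the highest mutant and the lowest control array was 2.12 in males and 1.92 in females on the log2 scale. The differences were -2.49 ± 0.17 (limma SE) in males and -2.32 ± 0.17 in females, the largest among the 6 genes in each sex. Mutant embryos kept 17.7% of the control signal in males and 20.1% in females.

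Pnlip encodes pancreatic triglyceride lipase, the main fat-digesting enzyme of pancreatic juice. It stood at 1.72, 1.47 and 1.24 in mutant males, against 3.02, 2.43 and 2.57 in control males. Mutant females gave 0.87, 1.28 and 1.30, against 2.55, 2.35 and 2.25 in control females. Every mutant array was below every control array, and the gap between the groups was 0.71 in males and 0.95 in females. The differences were -1.20 ± 0.19 in males and -1.24 ± 0.19 in females (limma SE), which left 43.6% and 42.4% of the control signal.

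Cpa1 encodes carboxypeptidase A1, which removes amino acids from the end of a protein chain. Its level was 2.73, 2.33 and 2.60 in mutant males, against 4.81, 4.40 and 4.24 in control males. It was 2.03, 2.34 and 2.17 in mutant females, against 4.30, 3.82 and 4.10 in control females. The 2 genotypes were apart by 1.5 in males and 1.48 in females at their nearest arrays. The differences were -1.93 ± 0.18 in males and -1.89 ± 0.18 in females (limma SE). Mutant embryos kept 26.3% of the control signal in males and 26.9% in females, and the probe stayed well above background on every mutant array.

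Cela3b encodes a chymotrypsin-like elastase, a protease that cuts at small residues. It stood at -0.84, -1.01 and -1.13 in mutant males, against 0.64, 0.36 and 0.0024 in control males. Mutant females gave -1.67, -1.24 and -1.19, against -0.12, -0.52 and -0.16 in control females. The groups were apart by 0.85 in males and 0.67 in females, with differences of -1.33 ± 0.19 and -1.10 ± 0.19 (limma SE). Its relative Cela3a lies beside it on chromosome 4 and had no matched probe. The files hold no probe sequences, so whether this or any other probe also binds a related transcript was not tested.

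Cela1, another elastase, was dim. Its level was -3.54, -3.59 and -3.33 in mutant males, against -3.52, -3.50 and -3.36 in control males. It was -3.79, -3.76 and -3.61 in mutant females, against -4.57, -3.10 and -3.86 in control females, where the array at -4.57 was not well above background. All 3 mutant female arrays lay between the extremes of the control females. The differences were -0.03 ± 0.28 in males and 0.12 ± 0.28 in females (limma SE).

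Ctrb1 encodes chymotrypsinogen B1, the precursor of a chymotrypsin. It stood at -2.17, -1.91 and -2.51 in mutant males, against -1.52, -1.92 and -2.36 in control males. Mutant females gave -2.22, -1.91 and -2.12, against -2.02, -2.15 and -1.93 in control females. The groups overlapped in both sexes, and the differences were -0.26 ± 0.21 in males and -0.05 ± 0.21 in females (limma SE).

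The embryos of a group differed less than the genotypes for the 4 lower genes. Within groups the SD of these 4 lay between 0.13 and 0.32. Control male 1 had the highest level among control males for all 4 genes, and for Ctrb1 as well; its array was also the dimmest of the 12, with a 75th percentile of 142.9. With array brightness as a covariate the differences were -2.53 for Pnliprp2, -1.84 for Cpa1, -1.21 for Cela3b and -1.08 for Pnlip in males, and -2.37, -1.76, -0.92 and -1.07 in females. On slide 1, mutant male 1 differed from the 3 control males by -2.22 for Pnliprp2, -1.75 for Cpa1, -1.18 for Cela3b and -0.95 for Pnlip. On slide 3, the 3 mutant females differed from control female 3 by -2.34, -1.92, -1.21 and -1.10 for the same genes. The within-slide differences were -0.08 and 0.14 for Cela1 and -0.24 and -0.15 for Ctrb1, in males and in females.

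Sex was not used to choose the genes, so the difference between males and females was tested in limma over all features. Between mutant males and mutant females none of the 6 genes passed the threshold, where 0.130% of all features did, and 0 of the 6 had an unadjusted limma p below 0.05, where 11.5% of all features did. The log2 differences, male minus female, were 0.38 for Cpa1 (95% interval -0.02 to 0.78), 0.37 for Cela3b (-0.05 to 0.80), 0.33 for Pnlip (-0.09 to 0.75), 0.23 for Cela1 (-0.38 to 0.85), 0.07 for Pnliprp2 (-0.30 to 0.45) and -0.12 for Ctrb1 (-0.58 to 0.35). The limma adjusted p ranged from 0.451 for Cpa1 to 0.858 for Pnliprp2. All 3 mutant males stood above all 3 mutant females for Cela3b and Cela1, as 14.2% of all features did. Mutant males and mutant females were never on one slide.

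Between control males and control females none of the 6 passed either, where 0.177% of all features did, and 2 of the 6 had an unadjusted limma p below 0.05, where 10.8% of all features did. Cela3b had the largest difference, 0.60 (95% interval 0.18 to 1.03), with all 3 control males above all 3 control females (true of 10.0% of all features), an unadjusted p of 0.0096 and a limma adjusted p of 0.394. Cpa1 followed at 0.41 (0.01 to 0.82, limma adjusted p = 0.463). The others were 0.38 for Cela1, 0.29 for Pnlip, 0.25 for Pnliprp2 and 0.10 for Ctrb1, with limma adjusted p from 0.537 to 0.840. All 6 values were above 0, as was the median over all features at 0.04. Control males and control females were never on one slide.

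For each of the 4 lower genes the order of the group means was control males, control females, mutant males and mutant females. The step between the control groups and the step between the mutant groups did not pass the test of sex, and the largest step lay between control females and mutant males. A large step between genotypes is part of the choice of these genes, which was made with their mutant effects known. For Cela3b the steps were closer, with means of 0.33, -0.27, -0.99 and -1.37 in that order.

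The difference of the mutant effects between the sexes, males minus females, was also tested in limma. It is made of the effects that the choice of genes used, so for the 6 genes it is not an independent test. It was -0.18 for Pnliprp2 (95% interval -0.71 to 0.35), 0.04 for Pnlip (-0.55 to 0.63), -0.03 for Cpa1 (-0.60 to 0.53) and -0.23 for Cela3b (-0.83 to 0.37). Cela1 gave -0.15 (-1.02 to 0.72) and Ctrb1 -0.22 (-0.87 to 0.44). The limma adjusted p rounded to 1.00 for all 6. Over all 19178 features 0 passed this limma test (0.00%), and 702 had an unadjusted p below 0.05.

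A list of other acinar secretory genes was set beside the 6. The list, Rnase1 included, was made with earlier results of these data known, so its p-values are not an independent test. Of 38 genes counted 28 had a matched probe and 11 were tested. In males 3 of the 11 fell, namely Pnliprp1, Rnase1 and Zg16, and 0 rose. In females 1 fell, Pnliprp1, and 0 rose. Over all features 0.391% in males and 0.349% in females passed as lower. The median difference of the 11 was 0.0035 in males and -0.41 in females, against -0.05 in each sex over all features. Of the remaining 17 genes with a probe, 14 were well above background on no array, among them Prss2 (a trypsinogen), Amy2a5 (pancreatic amylase), Cela2a, Gp2 and the listed Reg genes.

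Pnliprp1, pancreatic lipase-related protein 1, stood at -0.55, -0.33 and -0.44 in mutant males, against 1.30, 0.78 and 0.82 in control males. Mutant females gave -1.03, -0.75 and -0.95, against 0.91, 0.58 and 0.81 in control females. No mutant array reached a control array. It fell by 1.41 ± 0.16 in males (2.66-fold, limma adjusted p = 0.0023) and by 1.68 ± 0.16 in females (3.20-fold, limma adjusted p = 0.000823). The call ended in males when only the male groups were fitted (limma adjusted p = 0.0544) and in females with slide as a block (limma adjusted p = 0.0566), the highest values over 20 settings, whose lowest were 0.000924 and 0.000352.

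Rnase1, pancreatic ribonuclease, had another pattern. It stood at -4.05, -2.93 and -2.76 in mutant males, against 0.69, 0.53 and -0.36 in control males. Both female groups were low, with -4.44, -3.98 and -3.88 in mutants, against -3.19, -3.49 and -3.60 in controls. It fell by 3.53 ± 0.35 in males (limma adjusted p = 0.00105), while the female difference was -0.67 ± 0.35 (limma adjusted p = 0.489). Over 20 settings the male difference ran from -4.33 with slide as a block to -1.83 with normexp background correction. The difference of the effects was -2.86 (unadjusted p = 0.000131, limma adjusted p = 0.823). In males the call ended when only the male groups were fitted (limma adjusted p = 0.0538, from 0.000602 over 20 settings).

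Zg16, a zymogen granule protein, was dim, at -3.53, -3.38 and -3.60 in mutant males against -1.98, -2.31 and -2.61 in control males. It fell by 1.20 ± 0.22 in males (limma adjusted p = 0.0467), and the female difference of -0.87 ± 0.22 did not pass (limma adjusted p = 0.210). The male call is fragile: it ended in 14 of 20 other settings, among them without any single male array, with a limma adjusted p from 0.0162 to 0.205 and a difference from -1.36 to -0.39. The other 8 tested genes were not called in either sex. Among the proteases, Ctrl, a chymotrypsin-like protease, differed by 0.0035 ± 0.19 in males and 0.10 ± 0.19 in females. The trypsinogens Prss3 and Try5 differed by 0.44 ± 0.15 and 0.44 ± 0.27 in males and by 0.16 ± 0.15 and -0.20 ± 0.27 in females. Prss3 in males had no overlap, with mutants higher, as 8.38% of all features did. Both genes were dim: among the 3 control male arrays Prss3 was well above background on 0 and Try5 on 1. Klk1, a kallikrein, gave -0.31 ± 0.24 in males and -0.30 ± 0.24 in females, and Spink1, a trypsin inhibitor, 0.70 ± 0.78 and -1.45 ± 0.78. Among the other enzymes, Cel, carboxyl ester lipase, differed by -0.09 ± 0.19 and -0.24 ± 0.19, Pla2g1b, a phospholipase, by 0.01 ± 0.18 and -0.47 ± 0.18, and Amy1, salivary-type amylase, by 0.05 ± 0.26 and -0.41 ± 0.26.

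**Figure D2:**
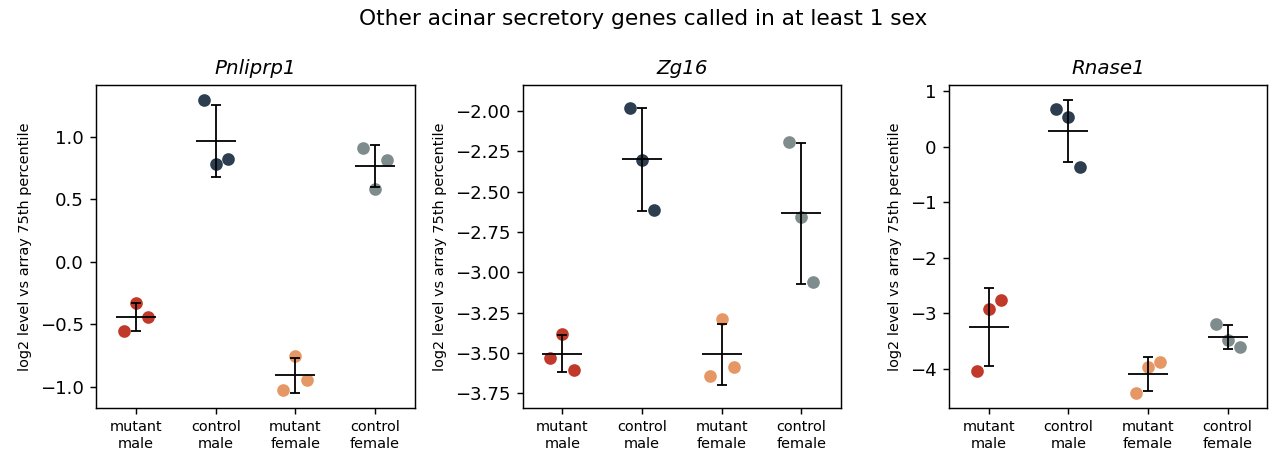
Levels of 3 other acinar genes called in at least 1 sex, by array (dots, 1 embryo each), as log2 signal relative to the 75th percentile of the array, with the mean and SD of each group of 3. Pnliprp1 is lower in mutants of both sexes, and the control males stand highest for Rnase1, at -0.36 to 0.69.

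**Figure D3:**
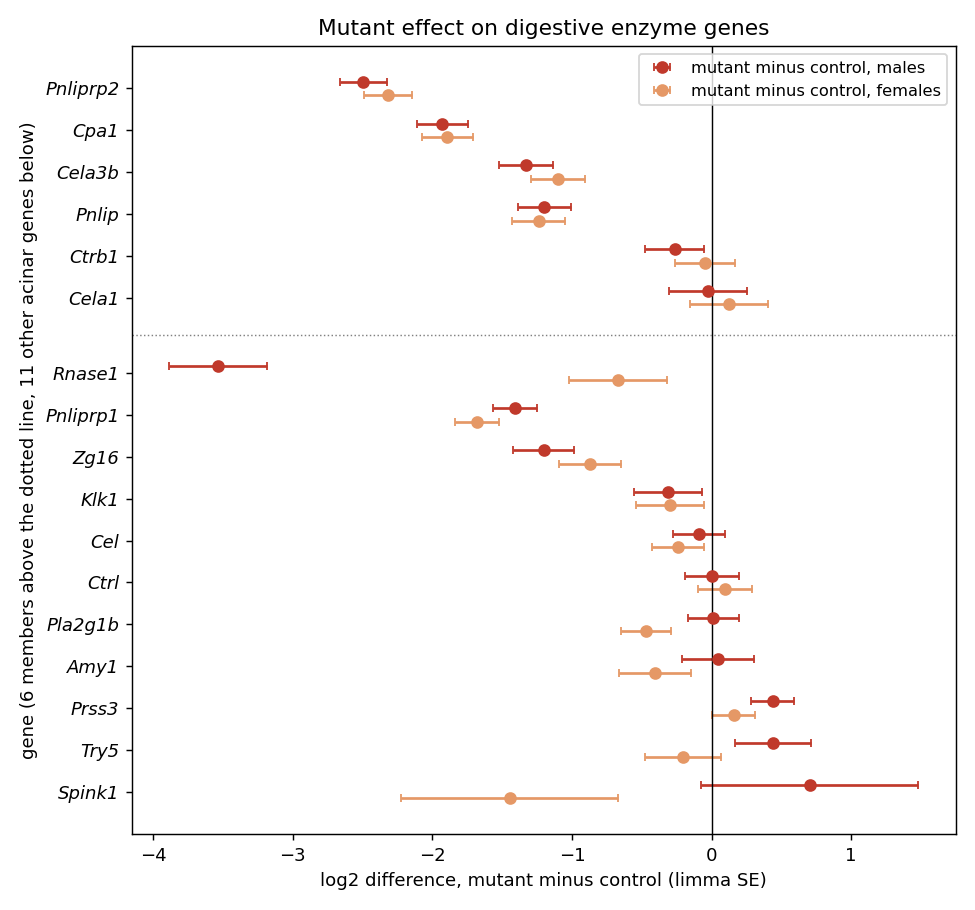
Log2 difference, mutant minus control, in males (dark red) and females (orange), with the limma standard error, for the 6 genes (above the dotted line) and 11 other acinar genes tested (below it). Pnliprp2, Cpa1, Cela3b and Pnlip lie left of 0 in both sexes, as do Pnliprp1, Rnase1, Zg16, Klk1 and Cel below the line. Cela1 and Ctrl lie near 0, and Ctrb1 lies at -0.26 in males and -0.05 in females.

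The lipase genes sit in a cluster. On chromosome 19, Pnlip, Pnliprp1 and Pnliprp2 are consecutive protein-coding genes in the RefSeq table of GRCm38.p6, and all 3 were lower in mutants of both sexes. On chromosome 6, Cpa4 and Cpa5 precede Cpa1 and did not pass the filter on dim probes. Protein-coding genes up to 3 places on either side of each of the 6 genes were taken as neighbours, 30 in all as counted here, of which 18 were tested. In each sex 1 of the 18 fell, the acinar gene Pnliprp1, and 0 rose, where 0.391% of all features in males and 0.349% in females passed as lower.

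Of the 17 tested neighbours outside the acinar list 0 passed in limma in either sex, with 4 in males and 0 in females at an unadjusted p below 0.05. Over all features that share was 11.9% in males and 10.4% in females, which holds for each count at an unadjusted p below. Their differences ran from -0.29 to 0.84 in males, with a median of 0.25, and from -0.43 to 0.52 in females, with a median of -0.02. The smallest limma adjusted p was 0.375 in males and 0.479 in females. Beside the lipase genes, Gfra1, a receptor for the growth factor GDNF, stood at 0.84 ± 0.57 in males and -0.43 ± 0.57 in females, 1700019N19Rik stood at 0.05 ± 0.24 in males and -0.38 ± 0.24 in females, and Hspa12a, a heat shock protein gene, at 0.32 ± 0.23 and 0.05 ± 0.23. Beside Cpa1, Cep41, a centrosome gene, stood at -0.29 ± 0.11 and 0.01 ± 0.11, and Mest, an imprinted gene, at 0.02 ± 0.11 and 0.08 ± 0.11. Beside Cela3b, Cdc42, a small GTPase, stood at -0.05 ± 0.12 and -0.08 ± 0.12, and Wnt4, a signal of ovary development, at -0.02 ± 0.23 and 0.03 ± 0.23. Hspg2, also beside Cela3b, stood higher, at 0.72 ± 0.28 and 0.19 ± 0.28. Beside Cela1, Scn8a stood at 0.47 ± 0.19 and -0.12 ± 0.19, and Dazap2 at -0.20 ± 0.11 and -0.18 ± 0.11. Beside Ctrb1, Tmem170 stood at 0.39 ± 0.17 and -0.02 ± 0.17, and Cfdp1 at -0.23 ± 0.16 and -0.25 ± 0.16. None of these neighbours passed the threshold.

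**Figure D4:**
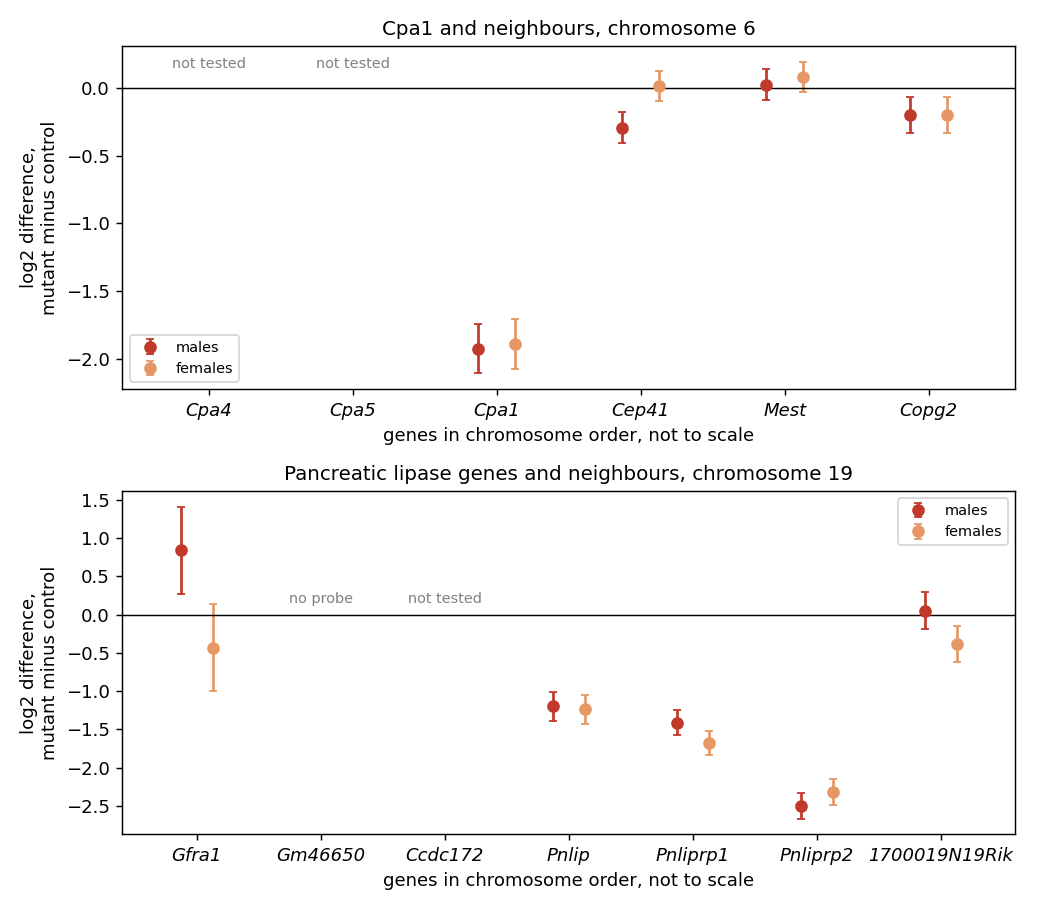
Log2 difference, mutant minus control, with the limma standard error, for genes in chromosome order around Cpa1 (upper panel) and Pnlip (lower panel) in males (dark red) and females (orange). Cpa1, and Pnlip, Pnliprp1 and Pnliprp2, lie below 0. Beside Cpa1, Cep41, Mest and Copg2 lie between -0.29 and 0.08, and beside the lipases Gfra1 lies at 0.84 in males and -0.43 in females and 1700019N19Rik at 0.05 and -0.38.

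The genes with the most similar profile over the 12 arrays were sought among 4359 named genes with a range of at least 1, by the root-mean-square difference of levels centred on the mean of each gene. Nearest to Pnliprp2 were Vav3, a guanine nucleotide exchange factor (0.27), Kdm3a itself (0.27) and Cpa1 (0.33), with Myl1, a muscle myosin light chain (0.35), and 2210407C18Rik (0.38) next. Nearest to Cpa1 were Myl1 (0.19), 2210407C18Rik (0.19), Myl3 (0.22), Pnliprp1 (0.24) and 1810065E05Rik (0.25). Pnlip and Cela3b were near each other (0.18). For Pnlip, Ak7, an adenylate kinase, was nearest (0.12), followed by Actr6 (0.17), with 2200002J24Rik (0.19) and Sprr2g (0.20) after Cela3b. For Cela3b, Pnlip was followed by 2200002J24Rik (0.19), Akr1c19 (0.25), Gstm2 (0.25) and Ak7 (0.25). Cela1, which was near Mfsd9 (0.24) and Slc3a1 (0.25), and Ctrb1, near Dclk1 (0.18) and Krt27 (0.20), had in none of these lists another of the 6 genes. Levels of Ctrb1 ran from -2.51 to -1.52, short of the range of 1, so Ctrb1 could not appear in any list. These distances are a description of profiles that mostly follow genotype, and the 6 genes were chosen with their mutant effects known.

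Among 16 transcription factors of acinar and early pancreas cells, 14 had a probe and 7 were tested. In limma 0 of the 7 passed in either sex, with 2 in males and 3 in females at an unadjusted p below 0.05. Ptf1a and Pdx1, which specify the pancreas, were well above background on no array, and Rbpjl was so on 3 of the 12. Bhlha15, a factor of secretory cells, differed by 0.75 ± 0.31 in males and 0.15 ± 0.31 in females, and Xbp1, a factor of the secretory pathway, by -0.35 ± 0.13 and 0.30 ± 0.13. Gata6, which gonadal somatic cells also express, made up 87.2% to 90.6% of the summed linear level of the 14 and differed by 0.28 ± 0.18 in males and 0.41 ± 0.18 in females. That sum ran from 13.7 to 16.8 in mutant males against 12.9 to 13.6 in control males, and from 15.6 to 21.9 in mutant females against 12.5 to 17.3 in control females.

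Markers of other cells were read beside the enzymes. Endocrine pancreas genes (5 tested of 17 counted), duct and gut genes (10 of 15) and hepatocyte genes (4 of 12) gave 0 calls in limma in either sex. At an unadjusted p below 0.05 these lists held 2, 4 and 1 genes in males and 1, 1 and 0 genes in females. Their defining genes were mixed: 9 of 16 endocrine genes with a probe, 3 of 15 duct and gut genes and 5 of 11 hepatocyte genes were well above background on no array, among them Ins1, Gcg, Ttr, Apoa1 and Cdx2. On all 12 arrays 3, 6 and 3 genes of these lists were well above background, among them Ins2, Krt18, Fabp2, Afp, Trf and Ahsg. Of the genes with the smallest p in males, the epithelial genes Cdh1 and Epcam stood higher in mutants by 1.66 ± 0.34 and 0.99 ± 0.27 and Spp1 lower, at -1.03 ± 0.37. Cdh1 was well above background on 1 of the 3 control male arrays. In females the mutant and control means were -3.12 and -3.31 for Cdh1, -1.63 and -1.50 for Epcam, and 0.48 and 0.67 for Spp1. The endocrine gene Chga stood at 1.39 ± 0.44 in males and the hepatocyte gene Ahsg at -1.01 ± 0.27, and in females Chga was at 0.95 ± 0.44 and Ahsg at -0.51 ± 0.27. Steroidogenic and adrenal genes, several of which Nr5a1 drives, gave 0 calls among 7 tested in limma, with 3 in males and 5 in females at an unadjusted p below 0.05. Star, which brings cholesterol into mitochondria, differed by -0.46 ± 0.15 in males and -0.74 ± 0.15 in females (limma adjusted p = 0.302 and 0.0910). The summed level of this list, of which Fdx1 made up 60.8% to 68.9%, did not overlap between genotypes. It was 11.1 to 14.1 in mutant males against 14.9 to 15.7 in control males. In females it was 9.72 to 10.8 in mutants against 12.5 to 14.7 in controls. Other lists also separated in both sexes. Endocrine pancreas genes summed higher in mutants, at 1.401 to 1.625 against 0.913 to 1.101 in control males. In females they summed to 1.751 to 2.131 in mutants against 1.241 to 1.525 in controls. The other acinar genes summed lower in mutants, at 3.73 to 5.68 against 6.0 to 7.99 in control males. In females they summed to 2.89 to 3.93 in mutants against 5.096 to 6.21 in controls. How often sums of other genes separate was not tested. Mesonephric genes, with Wfdc2 at 65.5% to 76.2% of the sum, summed to 10.49 to 21.1 in mutant males against 7.996 to 9.95 in control males, and to 8.27 to 13.6 in mutant females against 8.20 to 12.4 in control females. Endothelial genes summed to 4.69 to 9.83 in mutant males against 4.96 to 8.91 in control males, and to 4.33 to 7.93 in mutant females against 5.68 to 8.31 in control females. Erythroid genes, which summed to 27.8 to 335 in mutant males and 33.4 to 252 in control males, varied most between embryos, and their range in females was 23.4 to 496 in mutants and 56.7 to 865 in controls. Gonadal somatic, germ cell and leukocyte genes also gave 0 calls in limma in both sexes, with 0, 1 and 0 genes in males and 1, 2 and 0 genes in females at an unadjusted p below 0.05. The part of these cells in the levels of the enzymes was not tested.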

How the data were processed

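RNA of 12 embryos was hybridised to single-colour Agilent arrays. Agilent Feature Extraction 10.5.1.1 read the scans and the design used build mm9, per the file headers. The deposited intensity, per the file headers, is its processed signal: linear, with background removed and no scaling across arrays. Raw spot and local background intensities, also deposited, served 1 alternative.

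Each level is log2 of that signal less log2 of the 75th percentile over non-control spots. Outlier spots were left out and spots of a probe averaged. Probes were named by accession through the RefSeq table of GRCm38.p6, where 27479 of 41174 probes matched 18749 symbols. The filter kept probes well above background throughout at least 1 group, and the brightest probe stood for its gene (19178 features). Group means over all 12 arrays were fitted in limma 3.58.1 under R 4.3.3, with Benjamini-Hochberg adjustment at 0.05, and the fit was tested on simulated data. Replicates are single embryos of unknown litter, and their number limits precision. A few further genes, left out of the lists and the neighbours, are not reported here. The genes and lists were chosen with earlier results of these data known. Other genes were named as called or smallest-p list members, tested neighbours, or the 5 nearest profiles.

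Alternatives were quantile normalization, normexp background correction (offset 50), other filters on dim probes, only the groups compared, replicate number or slide as a block, and leaving out each array. Array brightness as a covariate, and setting outlying local backgrounds to the median of the array in normexp, were chosen after seeing the data.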

Additional observations from a re-analysis of the deposited data

How the results depend on the processing

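The 4 lower genes kept their direction in both sexes under all 8 other settings and without any single array. Over the 8 settings their differences ran from -2.53 to -1.83 in males and from -2.37 to -1.61 in females for Pnliprp2, from -1.93 to -1.75 and from -1.92 to -1.76 for Cpa1, from -1.33 to -1.002 and from -1.21 to -0.77 for Cela3b, and from -1.20 to -0.95 and from -1.25 to -1.07 for Pnlip. Without single arrays the ranges in males and females were -2.63 to -2.33 and -2.42 to -2.24 for Pnliprp2, -2.05 to -1.76 and -2.02 to -1.78 for Cpa1, -1.49 to -1.17 and -1.23 to -0.95 for Cela3b, and -1.32 to -1.03 and -1.31 to -1.10 for Pnlip. Normexp gave the smallest values for Pnliprp2 and Cela3b; the cause was not tested. Cela1 had no value where all 12 arrays had to be well above background, and each gene had 1 probe, so no other probe was tried. The mutant effects of Cela1 in both sexes (-0.18 to 0.02 in males and -0.10 to 0.26 in females over the settings, -0.10 to 0.03 and -0.24 to 0.49 without single arrays) and of Ctrb1 in females (-0.15 to 0.17, and -0.13 to 0.02) also changed sign.

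The features called for the mutant effect in males, 90 in all, numbered 35 without the filter on dim probes, 26 with only the groups compared, 54 with array brightness as a covariate, 52 with slide as a block, and 26 (without control male 1) to 93 without single arrays. In females, 68 became 43, 34, 42 and 13 under the same settings, and 31 (without mutant female 1) to 133 (without control female 3) without single arrays. The sex difference in mutants gave 25, against 11 with the stricter filter, 10 with only the groups compared, 16 with the replicate block, 10 with brightness, 7 with slide, and 11 (without mutant female 1) to 38 (without control female 3) without single arrays. In controls it gave 34, against 10 with only the groups compared, 13 with slide, and 19 to 40 without single arrays. The difference of effects gave 0, against 1 with brightness, 8 with slide and 0 without any single array. The other acinar genes called in males, 3, became 0 with only the groups compared and 2 to 3 without single arrays, and the 1 called in females became 0 with slide. The 1 neighbour called in each sex, Pnliprp1, was also lost in these settings (limma adjusted p = 0.0544 in males and 0.0566 in females). Without the filter the median of all features was -0.14 in males and -0.16 in females.

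Among the tested contrasts of the 6 genes, values that changed sign were not called. For the sex difference in mutants these were Pnliprp2 with normexp (-0.012) and slide (-0.025) and Ctrb1 with slide (0.022), with -0.061 to 0.24 and -0.26 to 0.041 without single arrays. In controls they were Ctrb1 with brightness (-0.25) and Pnliprp2 and Pnlip with slide (-0.14 each), and Ctrb1 ran from -0.11 to 0.31 without single arrays. For the difference of effects they were Cpa1 with quantile (0.059), normexp (0.048) and slide (0.17), Pnlip with normexp (-0.018) and brightness (-0.013), Cela1 with normexp (0.043), and Pnliprp2 (0.12) and Cela3b (0.032) with slide. Without single arrays Pnlip ran from -0.10 to 0.21, Cela1 from -0.52 to 0.21 and Cpa1 from -0.16 to 0.13. The causes were not tested.

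Same-numbered embryos of different groups did not deviate together (median r -0.12 over 18 pairs, against 0.11 over 36 pairs with other numbers). With the replicate block 62 features were called in males, 48 in females and 23 for sex in controls.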
